A study of Rattus norvegicus with 6 samples.

Results

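NK and cytotoxic granule genes were examined in rat liver as 9 genes, Nkg7, Gzma, Gzmb, Gzmk, Gzmm, Prf1, Klrd1, Klrk1 and Klrb1a, of the 14217 genes that the array's probe-to-gene table names. A probe set was taken when its only gene symbol was that of a member, which gave 10 probe sets of 31042, with 2 for Gzmb and 1 for each other gene. Liver RNA from 3 groups was hybridized to an Affymetrix rat genome array, with 2 arrays in each group and 6 in all. BBDR.lyp/lyp post-hyperglycemia rats were labelled 55 days old (within 5 days) and were sampled after the onset of hyperglycemia. BBDR.lyp/lyp pre-hyperglycemia rats carried the same homozygous lyp mutation, were labelled 50 days old (within 5 days) and were sampled before it. BBDR.+/+ rats carried no lyp mutation, were labelled 55 days old (within 5 days) and do not become diabetic spontaneously. Thus post-hyperglycemia and BBDR.+/+ rats shared an age and differed in genotype as well as in glycemia, whereas both BBDR.lyp/lyp groups shared the genotype and differed in age and glycemia. The lyp mutation lies in Gimap5 and leaves few T cells from birth, so all BBDR.lyp/lyp rats were lymphopenic throughout. The labels describe a fast before the liver was taken, whereas the methods give free access to food. The labels do not state that replicates came from different rats, or that the post- and pre-hyperglycemia livers did, and the methods describe liver taken at several ages. The p-values therefore speak only of variation among these arrays, which may be technical, and the small number of arrays limits the precision.

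Natural killer (NK) cells and cytotoxic T cells kill by releasing granules toward a target cell. Perforin, the product of Prf1, opens the target membrane, and granzymes, a family of serine proteases, enter and cut proteins inside. Granzymes A (Gzma) and K (Gzmk) cut after basic residues, granzyme B (Gzmb) after aspartate and granzyme M (Gzmm) after methionine. Nkg7 encodes a granule membrane protein needed for granule release. The other members are lectin-like receptors on the cell surface. Klrd1 encodes CD94, which pairs with NKG2 chains, Klrk1 encodes the activating receptor NKG2D, which reads stress ligands, and Klrb1a encodes NKR-P1A, the receptor by which rat NK cells are usually recognized. The liver sinusoids normally hold many NK cells. In RNA of whole liver, fewer cells of a type and less RNA in each cell cannot be told apart.

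Promoter sequences of 8 of the 9 members were found in RefSeq (GRCr8), each covering 250 bases before and 50 bases after the start of the gene. The promoter of Gzma is shown because its signal was the only one to pass the test, that of Gzmk because it is the next gene to Gzma in the RefSeq order of chromosome 2, and that of Klrk1 because it holds the same motif as Gzma. Capitals mark a match on either strand to GAAANN followed directly by GAAA (N, any base), the core of sites bound by interferon regulatory factors (IRF). The windows lie at chr2:46485647-46485946 for Gzma, chr2:46581966-46582265 for Gzmk and chr4:164778333-164778632 for Klrk1, all on the minus strand of the build and written 5′ to 3′ along the gene.
Gzma: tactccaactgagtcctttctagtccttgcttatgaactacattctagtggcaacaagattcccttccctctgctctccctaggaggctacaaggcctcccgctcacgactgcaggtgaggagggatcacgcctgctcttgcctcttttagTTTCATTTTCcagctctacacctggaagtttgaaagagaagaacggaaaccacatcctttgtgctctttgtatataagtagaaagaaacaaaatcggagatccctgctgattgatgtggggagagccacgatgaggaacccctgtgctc
Gzmk: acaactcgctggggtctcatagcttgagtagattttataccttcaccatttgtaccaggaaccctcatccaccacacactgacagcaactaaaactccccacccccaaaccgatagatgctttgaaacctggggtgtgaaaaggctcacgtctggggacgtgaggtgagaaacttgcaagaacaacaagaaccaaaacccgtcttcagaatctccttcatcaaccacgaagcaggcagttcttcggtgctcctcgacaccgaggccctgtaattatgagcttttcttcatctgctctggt
Klrk1: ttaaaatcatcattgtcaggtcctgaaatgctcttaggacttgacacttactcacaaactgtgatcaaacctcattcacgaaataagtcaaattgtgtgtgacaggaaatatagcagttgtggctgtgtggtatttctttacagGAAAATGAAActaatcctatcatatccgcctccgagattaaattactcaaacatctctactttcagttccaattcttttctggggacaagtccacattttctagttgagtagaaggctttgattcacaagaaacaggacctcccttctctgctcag

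Among the 8 promoters, 2 held the IRF core, which began 99 bases before the start site in Gzma and 106 bases before it in Klrk1. The share among all 27457 promoters of this length was 3.77%. TGTGGT, the core of RUNX sites, was found on either strand in 7 of the 8, all but that of Klrb1a, against 16.9% of all promoters. GGAAGT, a core of ETS sites, was found in 3 of the 8 (Gzma, Prf1 and Klrb1a), against 22.8%. GGTGTGA, a T-box core, was found in Gzmk and Gzmm, against 3.81%, TGACGT, the core of cyclic AMP response elements, in Gzmb and Prf1, against 8.22%, TTCNNNGAA, which STAT proteins bind, in Nkg7 and Gzmb, against 8.68%, and TATAAA in Gzmb and Gzmk, against 14.3%. All motifs were searched on both strands, and no matches to different motifs overlapped in the 8 promoters. A match describes the letters of the window and is not evidence of binding.

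Gzma was the only member whose signal changed by the test. Its log2 signal was 7.13 and 7.19 in the post-hyperglycemia livers, 6.91 and 6.74 in the pre-hyperglycemia livers, and 6.64 and 6.16 in the BBDR.+/+ livers. No array of a group overlapped an array of another group, and both post-hyperglycemia arrays were the highest of the 6. The means were 7.16 ± 0.05 after hyperglycemia, 6.83 ± 0.12 before and 6.40 ± 0.34 in BBDR.+/+ (log2, SD, n = 2 each), and the spread was widest in BBDR.+/+. Against BBDR.+/+ the log2 difference after hyperglycemia was 0.76 (SE 0.15, 95% interval 0.43 to 1.09, adjusted p = 0.0153 from limma), or 1.69-fold. The neighbours in the order of levels were not separated by the test, with 0.34 between post- and pre-hyperglycemia (95% interval 0.01 to 0.67, adjusted p = 0.317 from limma) and 0.42 between pre-hyperglycemia and BBDR.+/+ (95% interval 0.10 to 0.75, adjusted p = 0.286). The rank product test named in the methods, which orders pairwise ratios, also called Gzma higher than in BBDR.+/+, at an estimated share of false positives of 0.0762, whereas the methods' t-test did not call it after adjustment, nor any other probe set in that comparison. The limma call ended without post-hyperglycemia replicate 1 (0.79, adjusted p = 0.0589), without post-hyperglycemia replicate 2 (0.73, adjusted p = 0.0766) or without BBDR.+/+ replicate 2 (0.52, adjusted p = 0.144), and held without BBDR.+/+ replicate 1 (1.0, adjusted p = 0.0112) or either pre-hyperglycemia array (0.76, adjusted p = 0.012).

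**Figure D1:**
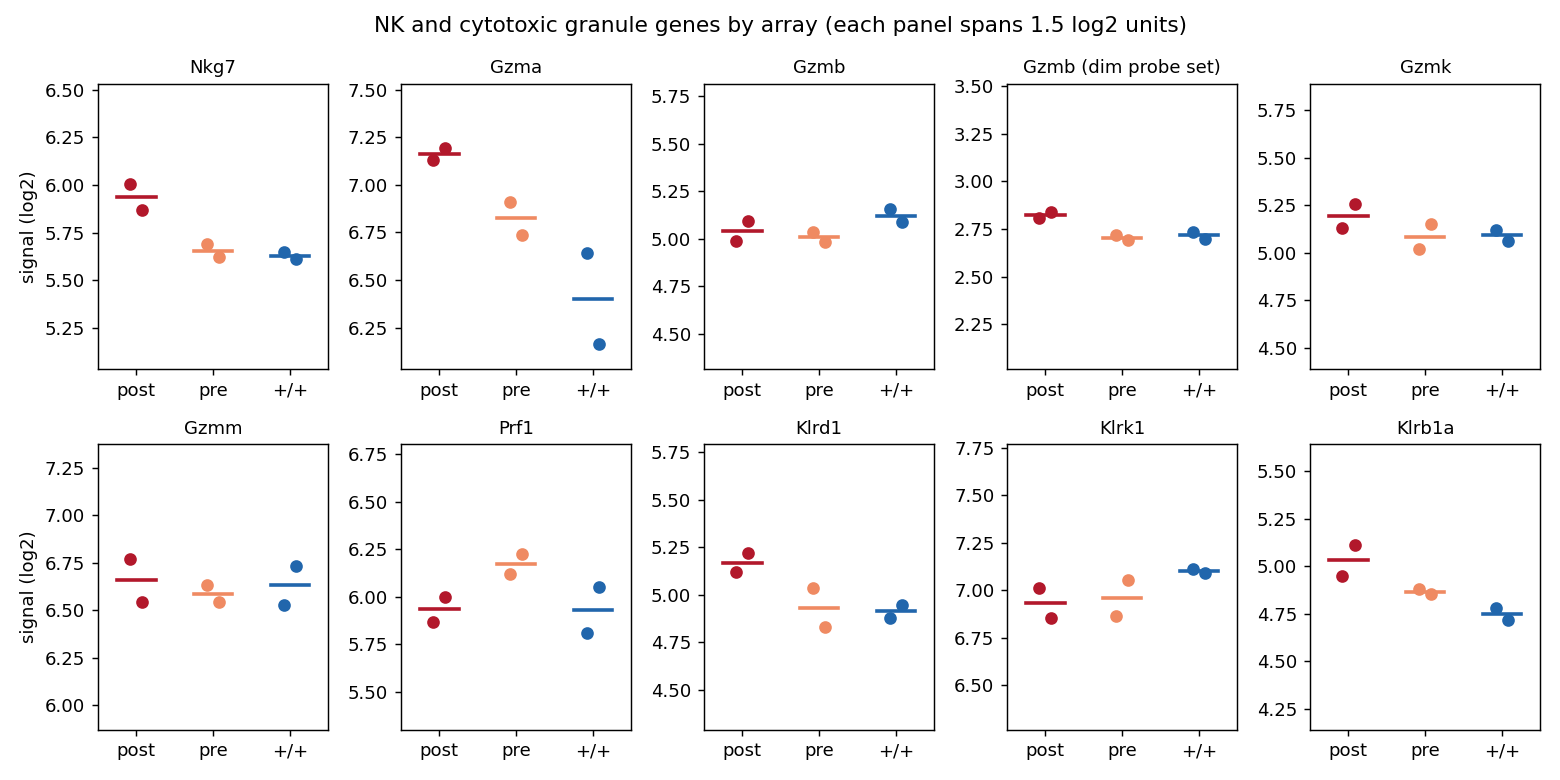
Log2 signal (vertical axis) of the 10 member probe sets in BBDR.lyp/lyp post-hyperglycemia, BBDR.lyp/lyp pre-hyperglycemia and BBDR.+/+ livers, with points for arrays and lines for means of 2 arrays. All panels span the same range of log2 units, and Gzma runs from 7.19 in a post-hyperglycemia liver to 6.16 in a BBDR.+/+ liver.

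The arrays also differed in how much signal came from the 5′ end of control transcripts, with the post-hyperglycemia arrays apart from the other 4. The 3′ minus 5′ difference of the beta-actin control probe sets was 2.11 and 2.04 (log2) in the post-hyperglycemia arrays, 1.51 and 1.32 in the pre-hyperglycemia arrays and 1.36 and 1.12 in the BBDR.+/+ arrays. Post-hyperglycemia arrays were the 2 highest and BBDR.+/+ replicate 2 was the lowest for both this difference and Gzma. The GAPDH controls gave 1.37 and 1.33 in post-hyperglycemia arrays, 0.67 and 0.55 in pre-hyperglycemia arrays and 0.72 and 0.44 in BBDR.+/+ arrays. The part of this difference in the Gzma result was not tested.

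**Figure D2:**
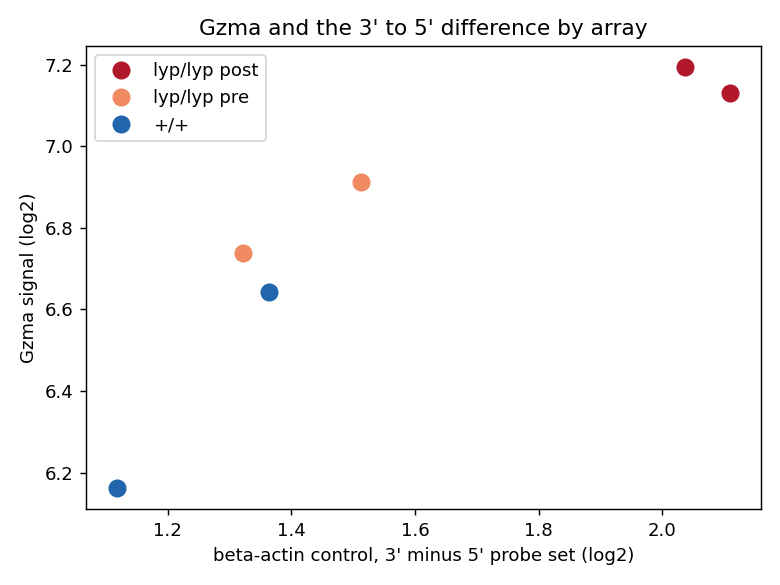
Log2 signal of Gzma (vertical axis) against the 3′ minus 5′ difference of the beta-actin control (log2, horizontal axis), with 1 point for each of the 6 arrays, coloured by group. Post-hyperglycemia arrays lie at 2.04 and 2.11 on the horizontal axis, and the others at 1.12 to 1.51.

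None of the other granzymes passed in any comparison. Gzmk was dimmer than most probe sets (mean percentile 35.9, beside 63.3 for Gzma). Gzmk read 5.13 and 5.25 after hyperglycemia, 5.02 and 5.15 before, and 5.12 and 5.06 in BBDR.+/+. Its log2 difference from BBDR.+/+ after hyperglycemia was 0.10 (95% interval -0.13 to 0.34, adjusted p = 0.666 from limma), whereas that of Gzma, its neighbour on the chromosome, was 0.76. The difference between both genes was not itself tested. Gzmm read 6.77 and 6.54 after hyperglycemia, 6.63 and 6.54 before, and 6.53 and 6.73 in BBDR.+/+, so that all groups overlapped. Its difference from BBDR.+/+ was 0.03 after hyperglycemia (95% interval -0.24 to 0.29) and -0.05 before (95% interval -0.31 to 0.22). The brighter probe set of Gzmb (mean percentile 34.7) read 4.99 and 5.09 after hyperglycemia, 5.04 and 4.98 before, and 5.16 and 5.09 in BBDR.+/+. Its difference from BBDR.+/+ was -0.08 after hyperglycemia (95% interval -0.31 to 0.15) and -0.11 before (95% interval -0.34 to 0.11). The dimmer Gzmb probe set read 2.69 to 2.84 over the 6 arrays, at the level of the dimmest probe sets of the array (mean percentile 1.28), and so carries little information. A further probe set, listed for Gzmb together with a second symbol and therefore left out by the rule, read 3.87 and 3.91 after hyperglycemia, 3.77 and 3.93 before, and 3.79 and 3.93 in BBDR.+/+.

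Neither Prf1, for the pore protein, nor Nkg7, for the granule membrane protein, passed in any comparison. Prf1 read 5.87 and 6.0 after hyperglycemia, 6.12 and 6.22 before, and 5.81 and 6.05 in BBDR.+/+. Its 2 pre-hyperglycemia arrays were thus the highest, and post-hyperglycemia and BBDR.+/+ arrays overlapped. The log2 difference of Prf1 was 0.004 for post-hyperglycemia against BBDR.+/+ (95% interval -0.26 to 0.26), -0.24 for post- against pre-hyperglycemia (95% interval -0.50 to 0.02, adjusted p = 0.385 from limma) and 0.24 for pre-hyperglycemia against BBDR.+/+ (95% interval -0.02 to 0.50, adjusted p = 0.481). Nkg7 read 6.01 and 5.87 after hyperglycemia, 5.69 and 5.62 before, and 5.65 and 5.61 in BBDR.+/+. Both post-hyperglycemia arrays lay above the other 4, which overlapped. The difference of Nkg7 was 0.31 against BBDR.+/+ (95% interval 0.08 to 0.54, unadjusted p = 0.0137 and adjusted p = 0.127 from limma). Relative to the pre-hyperglycemia livers it was 0.28 (95% interval 0.05 to 0.51, unadjusted p = 0.0208 and adjusted p = 0.222 from limma), and Nkg7 passed in neither comparison.

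None of the receptors passed in any comparison. Klrb1a, the usual marker of rat NK cells, read 4.95 and 5.11 after hyperglycemia, 4.88 and 4.85 before, and 4.78 and 4.72 in BBDR.+/+, with no overlap between groups. Klrb1a was dimmer than most probe sets (mean percentile 31.5). Its log2 difference was 0.28 for post-hyperglycemia against BBDR.+/+ (95% interval 0.05 to 0.51, adjusted p = 0.167 from limma) and 0.12 for pre-hyperglycemia against BBDR.+/+ (95% interval -0.12 to 0.35, adjusted p = 0.753). Klrd1 (mean percentile 33.7) read 5.12 and 5.22 after hyperglycemia, 5.04 and 4.83 before, and 4.88 and 4.95 in BBDR.+/+. Both post-hyperglycemia arrays were the highest, with a difference from BBDR.+/+ of 0.26 (95% interval 0.01 to 0.50, adjusted p = 0.231) and from pre-hyperglycemia of 0.24 (95% interval -0.01 to 0.48, adjusted p = 0.352). Klrk1 lies next to Klrd1 on chromosome 4 in the RefSeq order. It read 7.01 and 6.86 after hyperglycemia, 6.87 and 7.06 before, and 7.11 and 7.09 in BBDR.+/+. Here both BBDR.+/+ arrays were the highest, and the difference of post-hyperglycemia from BBDR.+/+ was -0.17 (95% interval -0.41 to 0.08, adjusted p = 0.463). Receptors of this family have close relatives, and whether their transcripts add to these probe sets was not tested.

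Over all 10 probe sets, limma called 1 higher and 0 lower after hyperglycemia than in BBDR.+/+, where 5.15% of all probe sets were called, 1.89% higher and 3.26% lower. Rank product called the same one, with 0.651% of all higher and 1.76% lower. With an unadjusted limma p under 0.05, 4 of the 10 (Gzma, Nkg7, Klrb1a and Klrd1) were higher and 0 lower, whereas 10.7% of all probe sets were higher and 8.98% lower. The arrays of both groups did not overlap in 7 of the 10, with 6 higher and 1 lower, beside 26.7% and 22.1% of all. The median log2 difference over the 9 genes, with the brighter probe set for Gzmb, was 0.10, beside 0.04 over the brightest probe sets of all 14217 genes. It was 0.163 without post-hyperglycemia replicate 1 and 0.027 over the 5 members among the top 60% of probe sets by signal. With arrays centred on ribosomal protein genes it was 0.155, a scaling that moved the median of all probe sets by 0.053.

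For post- against pre-hyperglycemia limma called 0 of the 10, where it called 2.18% of all, 0.718% higher and 1.46% lower. Rank product also called 0, with 0.493% of all higher and 1.25% lower. With an unadjusted limma p under 0.05, 2 (Gzma and Nkg7) were higher and 0 lower, beside 7.29% and 7.65% of all. The arrays did not overlap in 6 of the 10, with 5 higher and 1 (Prf1) lower, beside 23.6% and 20.9% of all. The median was 0.11, beside 0.01 over all genes. It was 0.17 without post-hyperglycemia replicate 1, 0.221 with ribosomal centring (which moved the median of all probe sets by 0.11) and 0.072 over the 5 brighter members. For pre-hyperglycemia against BBDR.+/+ limma again called 0, where it called 0.718% of all, 0.464% higher and 0.254% lower. Rank product called 0 too, with 0.744% of all higher and 0.541% lower. Gzma alone was higher at an unadjusted p under 0.05 and 0 were lower, beside 6.43% and 4.95% of all. The arrays did not overlap in 5 of the 10, with 3 higher and 2 lower, beside 21.6% and 21% of all. The median was 0.019, beside 0.024 over all genes, and had no stable sign, at -0.01 without pre-hyperglycemia replicate 1, 0.06 without pre-hyperglycemia replicate 2, 0.055 without BBDR.+/+ replicate 2 and -0.04 with ribosomal centring. Ribosomal centring moved the median of all probe sets by -0.058 in this comparison. With median centring the member median was 0.04 and with quantile normalization 0.043. The comparisons share arrays, so that their values are not independent of each other.

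**Figure D3:**
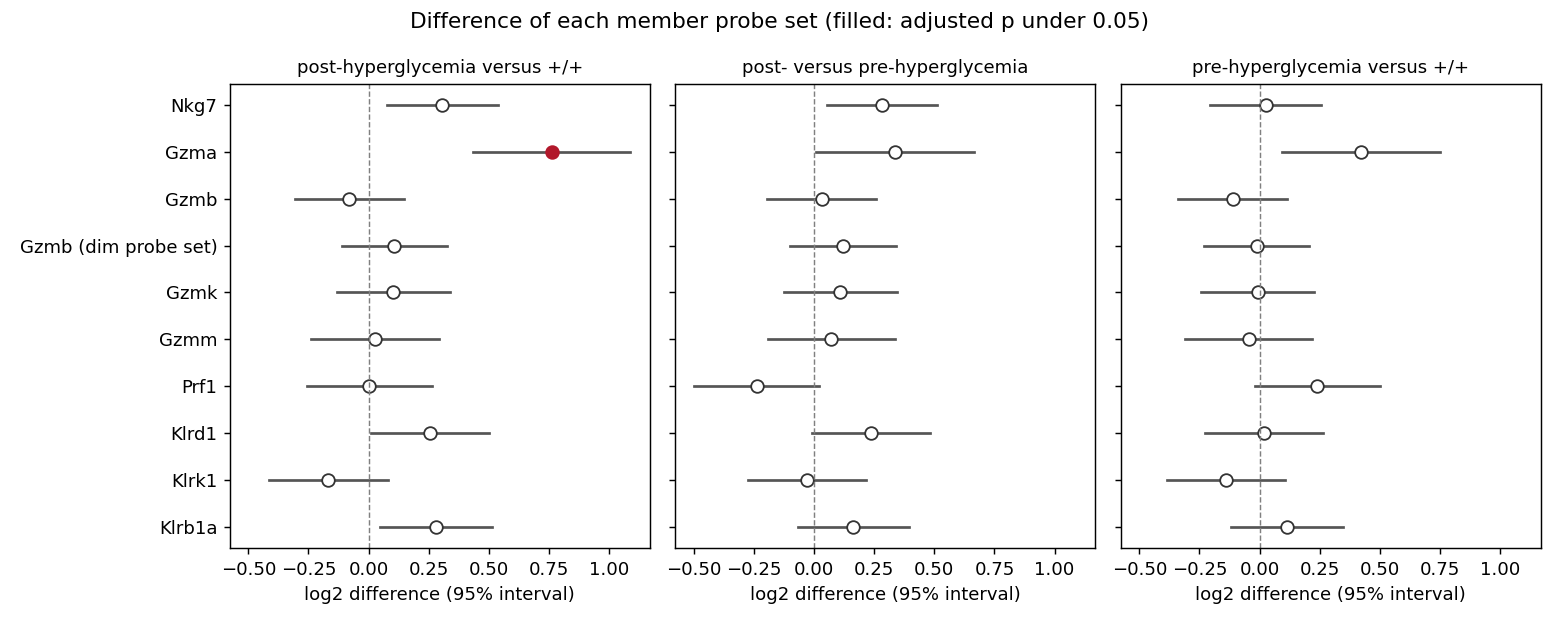
Log2 difference (horizontal axis, with 95% interval from limma) of each of the 10 member probe sets (vertical axis) in panels for the 3 pairs of groups. The filled point is the only call with an adjusted p under 0.05, Gzma at 0.76 against BBDR.+/+.

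Other genes of the NK pathway were measured in 5 lists of 72 genes. After hyperglycemia against BBDR.+/+ limma called 2 of the 72 higher and 0 lower, beside 1.89% and 3.26% of all probe sets. With an unadjusted limma p under 0.05, 8 were higher and 5 lower, beside 10.7% and 8.98% of all. Of 23 further receptors and adaptors measured, limma placed 1 higher and 0 lower after hyperglycemia than in BBDR.+/+, and the other 22 did not pass. Their median was 0.07. The one that rose was Klrg1, an inhibitory receptor of mature NK and effector T cells, which read 8.21 and 8.20 after hyperglycemia, 8.16 and 8.07 before, and 7.76 and 7.75 in BBDR.+/+. Its difference from BBDR.+/+ was 0.45 after hyperglycemia (adjusted p = 0.0291 from limma) and 0.35 before (adjusted p = 0.177), and the call ended without post-hyperglycemia replicate 1 (0.45) or 2 (0.45) or BBDR.+/+ replicate 1 (0.45) or 2 (0.44). Rank product called 0 of the 23. Tyrobp, the signalling adaptor DAP12, read 8.84 and 8.93 after hyperglycemia, 8.76 and 8.89 before, and 8.62 and 8.46 in BBDR.+/+ (0.35 for post-hyperglycemia against BBDR.+/+, adjusted p = 0.105 from limma). Klra22, of the Ly49 receptor family, was at -0.43 (adjusted p = 0.116) and Cd7 at -0.33 (adjusted p = 0.112) in that comparison. Ncr1, which encodes the NK receptor NKp46 and was chosen after its values were seen, read 3.49 and 3.83 after hyperglycemia, 3.96 and 3.58 before, and 3.88 and 3.27 in BBDR.+/+, a dim signal (mean percentile 11.5) with all groups overlapping. 

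Of 19 genes of granule assembly and release, limma and rank product called 0 after hyperglycemia against BBDR.+/+ (with an unadjusted limma p under 0.05, 2 were higher and 2 lower), with a median of 0.05. Vamp7, which encodes a protein of vesicle fusion, read 9.77 and 9.79 after hyperglycemia, 10.002 and 10.09 before, and 10.22 and 10.14 in BBDR.+/+ (-0.39 for post-hyperglycemia against BBDR.+/+, adjusted p = 0.0524 from limma). The death ligand gene Tnfsf10 was at 0.46 (adjusted p = 0.107) and Lamp1, for a lysosomal membrane protein also found on granules, at 0.26 (adjusted p = 0.197). Stx11, a dim signal (mean percentile 7.49), was at 0.24 after hyperglycemia and 0.34 before it against BBDR.+/+ (adjusted p = 0.287 and 0.286 from limma). Of 15 cytokine, chemokine and receptor genes, limma and rank product called 0, 0 had an unadjusted limma p under 0.05 and the median was 0.01. Il15, for a cytokine that keeps NK cells alive, was at -0.24 (adjusted p = 0.304), and the chemokine receptor gene Cxcr3 at -0.10 after hyperglycemia and -0.35 before it against BBDR.+/+ (adjusted p = 0.677 and 0.214). Of 16 genes listed for ligands of NK receptors only 4 were measured, namely Clec2d, RT1-S3, RT1-M3-1 and Cdh1. Both tests called 0 of these, and 0 had an unadjusted limma p under 0.05. The listed Raet1 and Ulbp1 genes were not measured, so these values do not cover the ligands of NKG2D.

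Of 11 transcription factors of NK cells, limma placed 1 higher after hyperglycemia than in BBDR.+/+, and the median was -0.04. The brightest probe set of Zeb2, which acts in NK cell maturation and is also used by macrophages, read 7.33 and 7.15 after hyperglycemia, 7.12 and 7.08 before, and 6.42 and 6.65 in BBDR.+/+. The difference was 0.70 (adjusted p = 0.00678 from limma), and it did not pass without BBDR.+/+ replicate 1 (0.59). A dimmer probe set of Zeb2 rose too (0.67, adjusted p = 0.0483), while the remaining 3 did not pass (0.39, -0.35 and -0.24). Rank product called Zeb2 higher in both BBDR.lyp/lyp groups than in BBDR.+/+. Eomes, which NK cells need for maturation, did not pass (-0.31, adjusted p = 0.173 from limma), nor did Nfil3, which they need for development (0.31, adjusted p = 0.125). Ets1 was at -0.17 in that comparison (adjusted p = 0.464 from limma) and at -0.36 for post- against pre-hyperglycemia (adjusted p = 0.157). Over these 5 lists of 72 genes, limma called 0 for post- against pre-hyperglycemia (with an unadjusted p under 0.05, 3 were higher and 3 lower) and 0 for pre-hyperglycemia against BBDR.+/+ (7 higher and 2 lower), and rank product called 0 and 1 (Zeb2).

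Markers of several other liver cells also differed between these groups. T cells also carry granzymes and perforin, and their 15 measured markers averaged 5.10 and 5.13 (log2) in post-hyperglycemia arrays, 5.11 and 5.19 in pre-hyperglycemia arrays and 5.31 and 5.26 in BBDR.+/+ arrays. Of these, Cd8b, the beta chain of the coreceptor of cytotoxic T cells, fell by 0.45 after hyperglycemia against BBDR.+/+ (adjusted p = 0.0353 from limma), and the other 14 did not pass. Rank product called 0 of them. The Cd8b call ended without post-hyperglycemia replicate 1 (-0.52) or 2 (-0.39) or BBDR.+/+ replicate 1 (-0.39) or 2 (-0.52), and with arrays centred on ribosomal protein genes (-0.40). The T cell receptor subunits Cd3d and Cd3e were at -0.47 and -0.44 after hyperglycemia against BBDR.+/+, without passing. Before hyperglycemia they were at -0.50 and -0.53, again without passing. After hyperglycemia 11 of the 15 differences were negative and 4 positive, with Cd8a at 0.04 and Lef1 the highest at 0.11. Markers of Kupffer cells, the liver macrophages, averaged 10.52 and 10.47 after hyperglycemia, 10.37 and 10.42 before, and 10.10 and 10.11 in BBDR.+/+. By limma 4 of 7 were higher after hyperglycemia than in BBDR.+/+, with a median of 0.40, whereas rank product called 1 of the 7 (Cd163). Before hyperglycemia limma and rank product called 0 of the 7 against BBDR.+/+ (5 higher with an unadjusted limma p under 0.05), with a median of 0.28. For Clec4f (0.42, adjusted p = 0.0453), Cd5l (0.43, adjusted p = 0.0392) and C1qa (0.40, adjusted p = 0.0442) the limma call after hyperglycemia ended with any of the 6 arrays left out, and for Cd163 (0.73, adjusted p = 0.00598) without BBDR.+/+ replicate 2 (0.61). A dimmer probe set of Cd5l did not pass (0.07, adjusted p = 0.92 from limma). Of 7 neutrophil and monocyte markers 3 were higher after hyperglycemia than in BBDR.+/+. The other 4 did not pass. Among the 7, 1 difference was negative, that of Ccr2 (-0.32, unadjusted p = 0.0189 and adjusted p = 0.151 from limma). S100a8 and S100a9, which encode calcium-binding proteins of neutrophils, were higher after hyperglycemia (1.29 and 1.46) as well as before it (1.21 and 1.67), although the S100a8 call before hyperglycemia ended without BBDR.+/+ replicate 1 (1.19) or 2 (1.23). Leaving out any array lowered the number of limma calls over all probe sets in every comparison. The Ly6c call after hyperglycemia (0.43, adjusted p = 0.0472 from limma) ended with any of the 6 arrays left out. Of 9 mast cell markers 2 were higher after hyperglycemia than in BBDR.+/+, namely the protease genes Mcpt1 (1.13, adjusted p = 0.00145 from limma) and Cpa3 (0.47, adjusted p = 0.043), and 4 of the 9 had negative differences, down to -0.28 for Kit. Mcpt1 was also higher after than before hyperglycemia (0.81, adjusted p = 0.0148 from limma), and rank product called it too. That limma call ended without post-hyperglycemia replicate 1 (0.605) or either pre-hyperglycemia array (0.76 and 0.85). The Cpa3 call ended without either post-hyperglycemia array (0.41 and 0.53) or either BBDR.+/+ array (0.46 and 0.48). Hdc, which encodes the histamine-forming enzyme, was higher before hyperglycemia than in BBDR.+/+ (0.84, adjusted p = 0.015 from limma), a call that ended with any of the 4 arrays of these groups left out (0.66 to 1.03). For post-hyperglycemia against BBDR.+/+, limma and rank product called 0 of 5 B cell markers and 0 of 7 hepatocyte markers, and 0 of either had an unadjusted limma p under 0.05. In the other comparisons both tests again called 0 hepatocyte markers, while Hnf4a (-0.40, unadjusted p = 0.00342 from limma) and Apoa1 (0.35, unadjusted p = 0.0116) were under 0.05 for pre-hyperglycemia against BBDR.+/+, and Hnf4a (0.23, unadjusted p = 0.0493) for post- against pre-hyperglycemia. The hepatocyte markers read 11.9 to 14.6 over all arrays. Gimap5 itself read 5.71 and 5.91 after hyperglycemia, 5.52 and 5.85 before, and 6.43 and 6.45 in BBDR.+/+. Limma called Gimap5 lower than in BBDR.+/+ after hyperglycemia (-0.63, adjusted p = 0.0191) and before it (-0.76, adjusted p = 0.0284). A lower signal is no direct check of a frameshift. The part of these cells in the Gzma result was not tested.

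**Figure D4:**
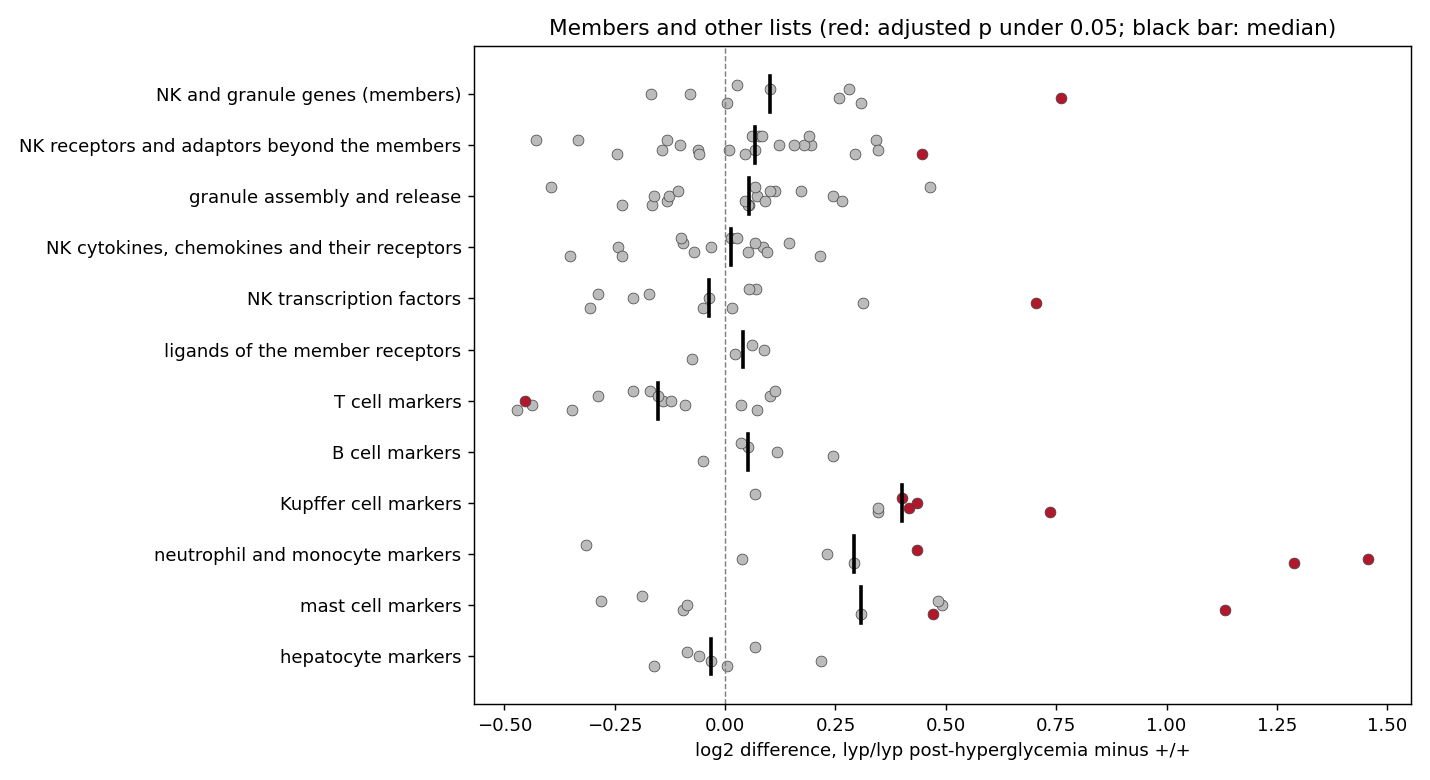
Log2 difference (horizontal axis) between BBDR.lyp/lyp post-hyperglycemia and BBDR.+/+ livers for the brightest probe set of each member and of each gene in 11 other lists (vertical axis), with red points for an adjusted p under 0.05 and black bars for medians. The member median lies at 0.10, that of T cell markers at -0.15 and that of Kupffer cell markers at 0.40.

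The members did not form a single pattern over the 6 arrays. Against the mean of the 9 centred profiles, Pearson's r was 0.95 for Klrb1a, 0.92 for Gzma, 0.90 for Nkg7, 0.86 for Klrd1 and 0.62 for Gzmk. It was 0.07 for Gzmm, -0.17 for Prf1, -0.34 for Gzmb and -0.69 for Klrk1. Each profile is part of that mean, and Gzma has the widest range in it. The probe sets outside the list with the nearest profiles belonged to Aifm2, Slc34a2, Cpsf7, Wfdc21, Tial1, Hsd3b5, Letm1, C8h11orf65, Tcim and Phip, at r of 0.99 to 0.997 over 6 arrays. The member mean was highest in the post-hyperglycemia arrays and lowest in the BBDR.+/+ arrays, so the choice of these 10 fixes the direction of their differences, and their calls are not given. Among 14209 candidate probe sets 650 had an r over 0.9, so the shape was not particular to the members. The post-hyperglycemia arrays were also apart from the others in their 3′ to 5′ difference.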

How the data were processed

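The authors hybridized liver RNA to Affymetrix RG230 2.0 arrays, quantified with Expression Console and normalized in Partek. The software versions and the normalization algorithm were "not given in the sources used here". For each probe set and array, 1 deposited log2 value was used, with similar medians between arrays (5.90 to 5.94). Setting aside 57 of 31099 probe sets as array controls left 31042. The symbols and Entrez identifiers of all 9 members were found in a current rat gene table.

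limma 3.58.1 (R 4.3.3) was fitted to all 6 arrays with 1 mean per group (3 residual and 7.7 prior degrees of freedom), no signal filter and a Benjamini-Hochberg adjusted p under 0.05 over all probe sets. The methods' rank product (100 permutations, false positive share under 0.20) and t-test were alternatives, with other normalizations, filters on dim probe sets, variance models, a replicate block and leaving out each array. Scripts were tested on simulated data. Members, gene lists and naming rule were chosen with earlier results of these data known. Named were all members, up to 4 genes per list with the smallest limma p in any comparison, Gimap5 and the 10 profiles nearest to the member mean among the top 60% by signal. Ncr1, Kit, Ccr2, Cd8a and Lef1 were named besides, after their values were seen. Lists use the brightest probe set of a gene. Python 3.11.15 and pandas 2.3.3 handled sequences and matplotlib 3.10.9 figures.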

Additional observations from a re-analysis of the deposited data

How the results depend on the processing

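The Gzma call against BBDR.+/+ kept its direction under every alternative run, and limma or rank product called it under each that used all arrays of that comparison and tested it, with adjusted p = 0.00578 (intensity trend) to 0.0235 (quantile normalization) among the other normalizations, variance models and the replicate block. The methods' t-test after adjustment called 0 members, and 0 probe sets in all. At an unadjusted p under 0.05 it reached 3362 probe sets. The 1 member among them was the dim Gzmb probe set, not Gzma. With arrays left out the number of member calls there was 0 to 1. With arrays centred on ribosomal protein genes the member median was 0.155 for post-hyperglycemia against BBDR.+/+, 0.221 against pre-hyperglycemia and -0.04 for pre-hyperglycemia against BBDR.+/+. This scaling moved the median of all probe sets by 0.053, 0.11 and -0.058 in these comparisons. The top 60% of probe sets by signal kept 5 members (Nkg7, Gzma, Gzmm, Prf1 and Klrk1). Over these the member median was 0.027 for post-hyperglycemia against BBDR.+/+ and 0.072 against pre-hyperglycemia, and the top 30% kept 0 members. With arrays left out the member medians of the comparisons were 0.102 to 0.163, 0.084 to 0.17 and -0.01 to 0.06.

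Of 492 values of members under alternatives, 23 changed sign, all for differences that did not pass. Klrk1 was 0.084 against pre-hyperglycemia with ribosomal centring, and Gzmb 0.014 against BBDR.+/+ as the mean of its probe sets. For pre-hyperglycemia against BBDR.+/+, Nkg7 was -0.034 and Klrd1 -0.04 with ribosomal centring, the dim Gzmb probe set 0.009 and Gzmk 0.014 with median centring, and Gzmk 0.012 with quantile normalization. With arrays left out, the ranges that crossed 0 were -0.087 to 0.141 for Gzmm and -0.118 to 0.125 for Prf1 after hyperglycemia against BBDR.+/+, -0.042 to 0.186 for Gzmm, -0.019 to 0.083 for Gzmb and -0.122 to 0.066 for Klrk1 against pre-hyperglycemia, and -0.01 to 0.06 for Nkg7, -0.073 to 0.058 for Gzmk, -0.084 to 0.122 for Klrd1, -0.03 to 0.007 for the dim Gzmb probe set and -0.147 to 0.057 for Gzmm before hyperglycemia against BBDR.+/+. The cause was not tested.

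Same-numbered replicates deviated together with r of 0.11 to 0.26 between groups, but nothing in the labels pairs them. With the replicate block limma called 1 member against BBDR.+/+ (Gzma, 0.761, adjusted p = 0.00667) and 0 in each of the other comparisons, with medians of 0.102, 0.109 and 0.019.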
